A study of Rattus norvegicus with 39 samples.

Results

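S100 proteins and annexins are families of small and medium-sized proteins that bind calcium. The 10 genes described here are S100a4, S100a10, S100b, S100a8, S100a9, Anxa1, Anxa2, Anxa3, Anxa5 and Anxa6. Probe sets were taken when the platform annotation gave exactly one of these symbols, which found all 10 genes through 15 probe sets, of 4736 genes and 8740 probe sets on the array. The family was selected on differences between the groups seen earlier in these same arrays, those of S100a4 and S100a10 above all. The members' differences between groups are therefore given as a description, with no p-value. Of the 15 probe sets, 9 had a mean at or above the 30th percentile of all probe sets, a log2 value of 6.28, and entered the fit across all probe sets, and these 9 stood for 7 genes.

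Transcripts were measured with 1 Affymetrix array per animal in the hippocampal CA1 region of 39 male Fischer 344 rats aged 18 months. Rats of 3 groups had been adrenalectomized, which removes the source of corticosterone (CORT), the main glucocorticoid of the rat, and then carried a slow-release pellet for 3 months. LowInj rats (n = 10) had a 25 mg CORT pellet and received 5 mg CORT per day intraperitoneally over 4 days before death. IntermediateCort rats (n = 9) had a 200 mg CORT pellet, and LowCort rats (n = 10) had the 25 mg pellet alone. Sham rats (n = 10) kept their adrenal glands and had an inert pellet. Saline with sucrose stayed the drinking fluid of the 25 mg pellet rats after the implant, so fluid and pellet dose cannot be told apart. Before the implant all adrenalectomized rats had also been given that fluid, mash, apple and injections of a corticosteroid. The labels name no vehicle injection in the other groups. Adrenalectomy also removes adrenal hormones other than CORT, so the sham group differs from the others in more than its CORT.

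The deposited values were on a log2 scale, array medians lay between 7.27 and 7.33, and pairs of arrays within a group correlated at 0.975 to 0.997 across probe sets. A list of 13 genes that glucocorticoids are known to induce had 6 tested genes. The list was chosen with earlier results of these data known, so its calls are a description and not an independent check. Of the 6 tested genes, 5 fell in LowCort against sham at a limma adjusted p under 0.05. In IntermediateCort against LowCort 3 rose. In LowInj against LowCort 1 rose (Sult1a1), and in LowInj against sham 3 fell (Sgk1, Errfi1 and Nfkbia). Of all tested probe sets 1.68%, 2.14%, 0.343% and 0.229% passed in these comparisons, in that order. Sgk1, a kinase that regulates ion channels, fell in LowCort, at 7.93 against 9.43 in sham rats (limma adjusted p = 2.9e-07). It was 0.71 (SE 0.18) higher in IntermediateCort than in LowCort (limma adjusted p = 0.0213). Its LowInj mean was 8.05, below sham (limma adjusted p = 6.78e-06). Above the filter were 6 astrocyte, 6 oligodendrocyte and 4 pyramidal neuron marker genes. The tissue block held many cell types, so more cells of a type and more RNA per cell cannot be told apart for any gene below.

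S100 proteins are paired EF-hand proteins that expose a binding surface when calcium rises and then dock onto target proteins. S100a10 is the exception, since it has lost calcium binding and is held in an open form; 2 copies of it join 2 copies of annexin A2 in a tetramer that sits at membranes, carries receptors and channels to the cell surface and binds plasminogen and its activator. Annexins bind acidic phospholipids in the presence of calcium and act in membrane repair, trafficking and the clearing of dying cells. In brain, S100b is a classic product of astrocytes, S100a4 is found in white matter astrocytes, fibroblasts and immune cells, and S100a8 with S100a9 forms calprotectin of neutrophils and monocytes. Annexin A1 is known as a mediator of the anti-inflammatory action of glucocorticoids.

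In the rat assembly GRCr8 several of the S100 genes lie in a cluster on chromosome 2. S100a4 spans chr2:178388529-178390838, S100a8 starts 75.6 kb and S100a9 99.4 kb from its start, and S100a10 lies 3516 kb away on the same chromosome. S100b is on chromosome 20. The annexins are dispersed, with Anxa5 on chromosome 2, Anxa1 on 1, Anxa2 on 8, Anxa3 on 14 and Anxa6 on 10.

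Promoter sequences from RefSeq (GRCr8, 250 bases before to 50 bases after each start) were found for 7 of the 10 genes, all except S100a8, S100a10 and Anxa6. The hexamer AGAACA, which forms one arm of the glucocorticoid receptor's binding site, was searched on both strands because the groups differ in glucocorticoid. It was in none of the 7 windows, against 20.7% of 33469 promoters of the same length. The complete site, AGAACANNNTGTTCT, was in none of them and in 0.0149% of all promoters. TATAAA, searched on both strands, was in 4 of the 7 windows and in 14.2% of all promoters. It began 31 bases before the start in S100a4, 42 in S100a9, 46 in Anxa1 and 45 in Anxa2. S100a4 is printed because its LowCort minus sham difference was the largest among the members, Anxa2 because its protein is the partner of S100a10, and Anxa1 because glucocorticoids are known to act through its protein; TATAAA is in capitals. The windows are chr2:178388279-178388578 (plus strand), chr8:78986002-78986301 (plus strand) and chr1:227303683-227303982 (minus strand). The Anxa1 window lies inside the annotated span of the gene, chr1:227287713-227306739, so it is not at the outermost 5-prime end.
S100a4: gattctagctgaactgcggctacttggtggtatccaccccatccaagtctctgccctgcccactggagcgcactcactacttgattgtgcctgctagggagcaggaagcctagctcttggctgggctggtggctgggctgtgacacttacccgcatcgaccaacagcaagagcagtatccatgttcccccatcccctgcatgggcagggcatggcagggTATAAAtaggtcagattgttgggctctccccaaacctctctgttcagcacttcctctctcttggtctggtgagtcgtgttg
Anxa2: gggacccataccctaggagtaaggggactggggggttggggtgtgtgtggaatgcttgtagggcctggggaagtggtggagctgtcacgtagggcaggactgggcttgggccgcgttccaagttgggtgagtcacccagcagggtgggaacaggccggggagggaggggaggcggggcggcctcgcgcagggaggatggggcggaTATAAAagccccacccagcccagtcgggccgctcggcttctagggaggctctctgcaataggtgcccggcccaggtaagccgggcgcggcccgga
Anxa1: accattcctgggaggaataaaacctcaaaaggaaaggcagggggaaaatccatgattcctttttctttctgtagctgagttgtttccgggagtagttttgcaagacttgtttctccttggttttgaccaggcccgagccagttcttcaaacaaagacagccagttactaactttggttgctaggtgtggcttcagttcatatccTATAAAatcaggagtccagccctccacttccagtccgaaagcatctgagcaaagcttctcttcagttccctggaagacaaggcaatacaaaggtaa

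S100a4, also called metastasin, binds non-muscle myosin and other cytoskeletal proteins and is secreted by some cells. Its level (lowest, median and highest array) was 6.42, 6.79 and 7.07 in LowInj rats, 6.23, 6.51 and 6.77 in IntermediateCort rats, 6.63, 7.00 and 7.61 in LowCort rats and 6.04, 6.41 and 6.63 in sham rats. The LowCort arrays were the highest and the sham arrays the lowest, and at 2 decimals the lowest LowCort and the highest sham array had the same value. The family was chosen from this difference, so nothing is read from how the groups separate. LowInj arrays lay between them, with 7 of 10 above the highest sham array and 3 of 10 below the lowest LowCort array. IntermediateCort arrays lay near the sham arrays, with 8 of 9 below the lowest LowCort array.

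**Figure D1:**
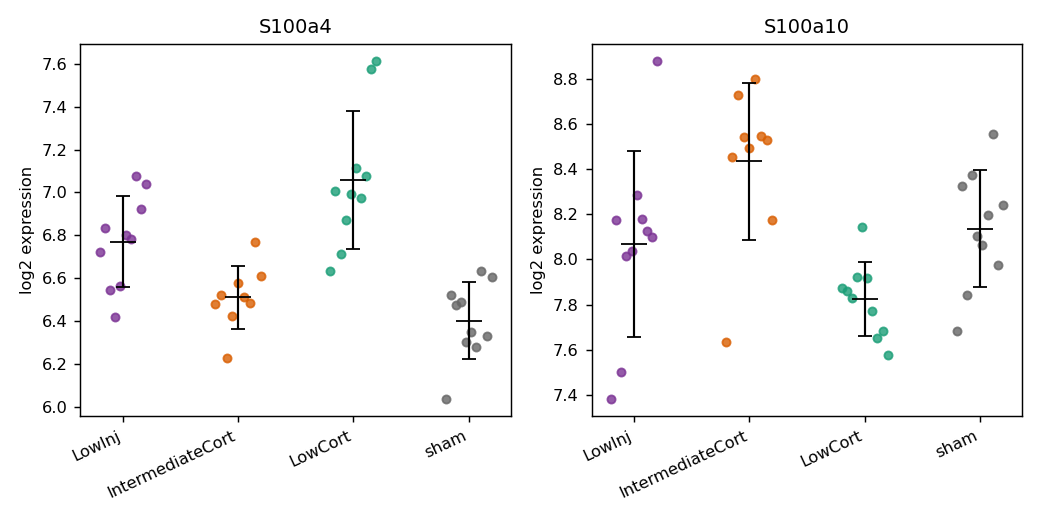
Log2 expression of S100a4 (left) and S100a10 (right) in each array of the LowInj, IntermediateCort, LowCort and sham groups, with the group mean and SD as bars. S100a4 was highest in LowCort (mean 7.06) and lowest in sham (6.40), while S100a10 was highest in IntermediateCort (8.43) and lowest in LowCort (7.82).

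The mean S100a4 level was 6.77 ± 0.21 in LowInj (SD, n = 10), 6.51 ± 0.15 in IntermediateCort (n = 9), 7.06 ± 0.32 in LowCort (n = 10) and 6.40 ± 0.18 in sham rats (n = 10). In order of level the groups ran LowCort, LowInj, IntermediateCort and sham, and the last of these neighbours, IntermediateCort and sham, differed by 0.11 with a 95% interval of -0.10 to 0.31. The LowCort mean was 0.65 (SE 0.10) above sham, a 1.57-fold difference with an interval of 0.45 to 0.85. IntermediateCort lay 0.54 (SE 0.10) below LowCort, which is 1.46-fold, with an interval of -0.75 to -0.34. Both differences passed an adjusted p of 0.05 in the limma fit across all 6118 tested probe sets, where 1.68% of probe sets were called in LowCort against sham and 2.14% in IntermediateCort against LowCort. Since the family was chosen from these differences, nothing is read from those calls.

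After 4 days of injections S100a4 stood 0.29 (SE 0.10) below LowCort, with an interval of -0.49 to -0.09, and 0.37 (SE 0.10) above sham, with an interval of 0.17 to 0.57. It was also 0.26 (SE 0.10) above IntermediateCort. None of these differences was called, where 0.343%, 0.229% and 0.196% of all tested probe sets were called. With the subject rank as a covariate that from sham was called, where 0.49% of all tested probe sets were called. The mean of the injected rats thus fell between those of LowCort and sham, without a call on either side. Since this gene chose the family, nothing is read from that position or from the intervals. All 10 LowInj arrays were above the sham mean, and 9 of 10 were below the LowCort mean.

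S100a10, also called p11, takes serotonin receptors, potassium channels and sodium channels to the cell surface together with annexin A2. Its level (lowest, median and highest array) was 7.38, 8.11 and 8.88 in LowInj rats, 7.63, 8.53 and 8.80 in IntermediateCort rats, 7.57, 7.84 and 8.15 in LowCort rats and 7.68, 8.15 and 8.56 in sham rats. IntermediateCort arrays were high and LowCort arrays low, with 8 of 9 IntermediateCort arrays above the highest LowCort array and 1 IntermediateCort array, at 7.63, among the LowCort values. LowInj arrays spread over the whole range of the other groups.

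The mean S100a10 level was 8.07 ± 0.41 in LowInj (SD, n = 10), 8.43 ± 0.35 in IntermediateCort (n = 9), 7.82 ± 0.16 in LowCort (n = 10) and 8.14 ± 0.26 in sham rats (n = 10). IntermediateCort exceeded LowCort by 0.61 (SE 0.14), a 1.53-fold difference with an interval of 0.33 to 0.89, and this was the only one of its 6 comparisons that was called. LowCort lay 0.31 (SE 0.13) below sham, with an interval of -0.58 to -0.04. IntermediateCort lay 0.30 (SE 0.14) above sham, with an interval of 0.02 to 0.57. Neither difference was called. Only 0.0163% of tested probe sets, 1 probe set in all, was called in IntermediateCort against sham. LowInj lay 0.37 (SE 0.14) below IntermediateCort and 0.24 (SE 0.13) above LowCort. Among the alternatives tried, the former was called only with array weights, where 1.72% of all tested probe sets were called. The interval of LowInj minus sham was -0.34 to 0.20. S100a10 and S100a4 thus had opposite signs in LowCort against sham and in IntermediateCort against LowCort. Those comparisons share the LowCort arrays.

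An F test over the 4 groups called 2 of the 9 member probe sets, S100a4 and S100a10, where 2.27% of all tested probe sets were called, and nothing is read from that count since these genes chose the family. The F call of S100a10 was lost in 17 of 39 refits that each left out 1 array, those of sham replicate 7, IntermediateCort replicates 12 to 18 and LowCort replicates 20 to 23 and 25 to 29. In all, the members had 0, 0, 0, 2, 0 and 1 called probe sets of 9 in LowInj minus IntermediateCort, LowInj minus LowCort, LowInj minus sham, IntermediateCort minus LowCort, IntermediateCort minus sham and LowCort minus sham. Of all tested probe sets 0.196%, 0.343%, 0.229%, 2.14%, 0.0163% and 1.68% were called, in the same order. Nothing is read from these counts either. The median difference over the 9 was -0.07 in IntermediateCort minus LowCort and 0.04 in LowCort minus sham, beside 0.01 and -0.01 over all tested probe sets.

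**Figure D2:**
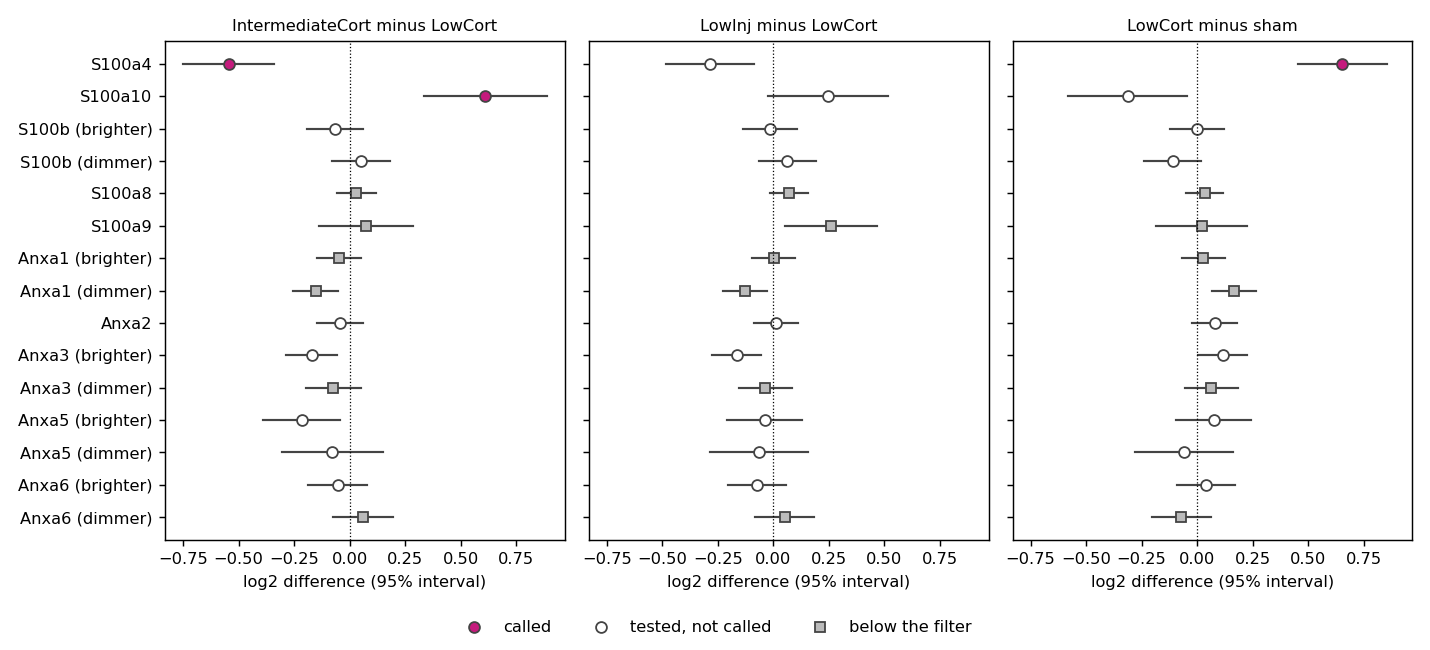
Log2 differences with 95% intervals for the 15 member probe sets in IntermediateCort minus LowCort, LowInj minus LowCort and LowCort minus sham; filled circles were called, open circles were tested and not called, squares were below the filter. The calls were S100a4 (-0.54 and 0.65 in the outer panels) and S100a10 (0.61 in the left panel).

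Within groups, S100a4 went with the animals' subject numbers and with the difference between the 3-prime and 5-prime signal of beta-actin, which is larger where RNA is more broken or copied less far. Over 39 arrays with group means subtracted, S100a4 correlated with the rank of the subject number within its group (r = 0.64, permutation p = 4e-05, adjusted p = 0.00063; Spearman's rho = 0.58, permutation p = 0.00032, adjusted p = 0.00216), with adjustment over 27 relations of 9 probe sets with 3 measures. Sham replicate 10, LowCort replicate 29 and LowInj replicate 39 tied as farthest from the median rank. Without the first 2 of them r was 0.59, and within LowInj, IntermediateCort, LowCort and sham it was 0.64, 0.59, 0.86 and 0.41. The 2 highest S100a4 values of all 39, 7.57 and 7.61, belonged to the 2 highest subject numbers of LowCort. The labels do not say whether subject numbers follow an order of surgery, dissection or hybridization. S100a4 also correlated with the beta-actin difference (r = 0.53, permutation p = 0.00074, adjusted p = 0.00499; rho = 0.51, permutation p = 0.00176, adjusted p = 0.00792). That difference averaged 0.79 ± 0.69 in LowInj, 0.65 ± 0.36 in IntermediateCort, 0.93 ± 0.40 in LowCort and 0.68 ± 0.41 in sham rats (SD). With the beta-actin and Gapdh differences as covariates S100a4 differed by 0.59 (SE 0.09) in LowCort minus sham and by -0.47 (SE 0.09) in IntermediateCort minus LowCort, and S100a10 by 0.68 (SE 0.13) in IntermediateCort minus LowCort. With the rank of the subject number as a covariate these differences were 0.65, -0.52 and 0.63. S100a10 passed with none of the 3 measures, its closest being the subject rank (r = 0.33, permutation p = 0.0447, adjusted p = 0.121; rho = 0.17, permutation p = 0.305, adjusted p = 0.412).

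**Figure D3:**
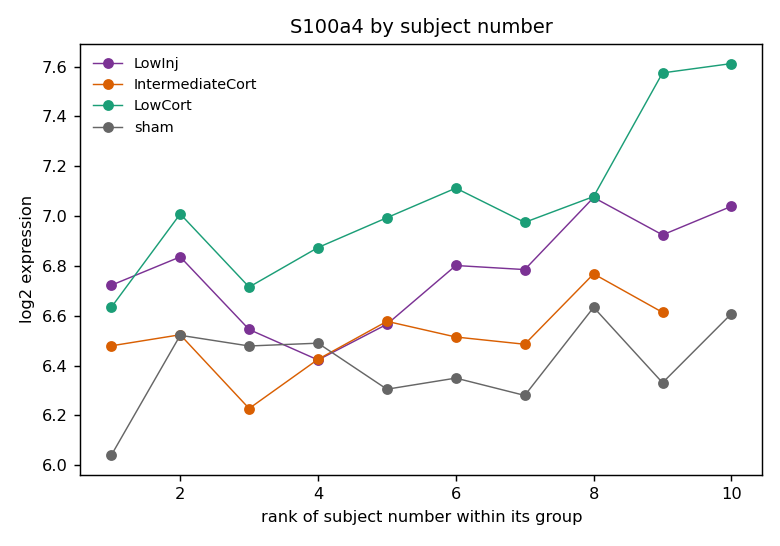
Log2 expression of S100a4 against the rank of the subject number within its group, with points joined within LowInj, IntermediateCort, LowCort and sham. Higher ranks tended to have higher values (r = 0.64 over 39 arrays with group means subtracted).

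Single marker genes of several cell types were called in the comparisons in which S100a4 differed, where 1.68% of all tested probe sets were called in LowCort against sham and 2.14% in IntermediateCort against LowCort. Of 10 tested microglia and macrophage genes, 2 rose in LowCort against sham, Aif1 by 0.53 (SE 0.14, limma adjusted p = 0.0396) and the Fc receptor gene Fcgr2b by 0.54 (SE 0.10, limma adjusted p = 0.000951), and 0 fell. The list's median was 0.05, with 6 of 10 genes above 0. In IntermediateCort against LowCort 3 of the 10 fell, Aif1, Fcgr2b and Cd53, and 0 rose, with a median of -0.11 and 3 of 10 above 0. The summed level of the list on a log2 scale ran from 11.40 to 11.70 in IntermediateCort, 11.48 to 11.79 in LowCort and 11.51 to 11.66 in sham rats. Of 10 tested endothelial and pericyte genes, the transporter gene Slco1a4 was 0.56 (SE 0.10, limma adjusted p = 0.000421) higher in LowCort than in sham, with a list median of 0.03 and 6 of 10 above 0. Slco1a4 and the potassium channel gene Kcnj8 fell in IntermediateCort against LowCort, by 0.59 and 0.63 (limma adjusted p = 0.000352 and 0.0452), with a list median of -0.06 and 3 of 10 above 0. That list's summed level ran from 11.61 to 12.02 in IntermediateCort, 11.80 to 12.22 in LowCort and 11.60 to 12.12 in sham rats. Of 6 tested fibroblast and meningeal genes, Mgp rose in LowCort against sham, by 0.24 (SE 0.05, limma adjusted p = 0.00821), and Igfbp2 fell, by 0.19 (limma adjusted p = 0.0409), with a list median of -0.02 and 2 of 6 above 0. In IntermediateCort against LowCort Mgp fell by 0.23 (limma adjusted p = 0.0133), with a median of -0.03 and 2 of 6 above 0. The summed level of that list ran from 10.52 to 10.68 in IntermediateCort, 10.60 to 10.72 in LowCort and 10.55 to 10.71 in sham rats. Of 6 oligodendrocyte genes, Cnp fell in IntermediateCort against LowCort, by 0.28 (limma adjusted p = 0.0137), and 0 were called in LowCort against sham. Their medians were -0.02 with 2 of 6 above 0, and 0.03 with 5 of 6 above 0. The summed level of the list ran from 13.59 to 14.28 in IntermediateCort, 13.56 to 14.29 in LowCort and 13.68 to 14.20 in sham rats. Astrocyte genes gave 0 limma calls of 6 in either comparison. Their median was 0.05 with 5 of 6 above 0 in IntermediateCort minus LowCort, and -0.07 with 1 of 6 above 0 in LowCort minus sham. The summed level of the list ran from 13.71 to 13.95 in IntermediateCort, 13.56 to 13.85 in LowCort and 13.37 to 13.97 in sham rats. Of 4 tested pyramidal neuron genes, Nr3c2 rose in LowCort against sham, by 0.44 (limma adjusted p = 0.0218), with a list median of 0.11. Of 8 tested interneuron genes, Gad1 and Calb2 fell in that comparison, by 0.31 and 0.23 (limma adjusted p = 0.00758 and 0.0135). The interneuron median was -0.16, with 1 of 8 above 0. In IntermediateCort against LowCort 0 neuron genes were called, with medians of -0.01 (pyramidal) and 0.13 (interneuron). The part of any of these cells in the S100a4 difference was not tested.

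The genes whose pattern was most like S100a4, among 5064 probe sets compared over 39 arrays with group means subtracted, were Slc16a1 (r = 0.83), Akap8 (0.77), Fah (0.74), Ccdc88c (0.74) and Tns3 (0.71). With group means kept they were Vim (0.83), Cyp7b1 (0.82), Ccnd1 (0.81), Enpp2 (0.79) and Pld2 (0.79). For S100a10 they were Gpr161 (0.85), Cnksr2 (0.81), Ifrd1 (0.81), Egr1 (0.79) and Homer1 (0.79) with group means subtracted, and Ifrd1 (0.84), Bud31 (0.83), Cdo1 (0.81), Wipf3 (0.81) and Cnksr2 (0.79) with them kept. No gene stood in both lists of S100a4, whereas Ifrd1 and Cnksr2 stood in both lists of S100a10. These arrays share tissue and hybridization, so the values are descriptions of likeness.

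S100b, a protein that astrocytes make and release, had 2 probe sets. The brighter probe set averaged 12.70 ± 0.15 in LowInj, 12.65 ± 0.12 in IntermediateCort, 12.71 ± 0.12 in LowCort and 12.71 ± 0.13 in sham rats (SD), and its mean was above that of 99.4% of probe sets. LowCort minus sham was -0.00, with a 95% interval of -0.12 to 0.12. The dimmer probe set averaged 8.74 ± 0.08 in LowInj, 8.73 ± 0.21 in IntermediateCort, 8.68 ± 0.15 in LowCort and 8.79 ± 0.09 in sham rats, and no group stood apart. Within groups the dimmer correlated with the subject rank (r = 0.47, permutation p = 0.0022, adjusted p = 0.0099 and rho = 0.52, permutation p = 0.00145, adjusted p = 0.00783). Without sham replicate 10 and LowCort replicate 29, 2 of the arrays tied as farthest in rank, r was 0.42. With the beta-actin difference it passed by r and not by rho (r = 0.37, permutation p = 0.00899, adjusted p = 0.0347; rho = 0.26, permutation p = 0.116, adjusted p = 0.305).

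S100a8 and S100a9, the subunits of calprotectin, were below the filter and did not enter the limma fit. S100a8 averaged 4.15 ± 0.10 in LowInj, 4.11 ± 0.07 in IntermediateCort, 4.07 ± 0.06 in LowCort and 4.04 ± 0.09 in sham rats (SD). S100a9 averaged 4.90 ± 0.39 in LowInj, 4.72 ± 0.12 in IntermediateCort, 4.64 ± 0.18 in LowCort and 4.62 ± 0.13 in sham rats. Both means were largest in LowInj, and the S100a9 difference of 0.28 (SE 0.10) between LowInj and sham includes 1 LowInj array at 5.91, whose nearest neighbour in the group was at 5.06. Without that array (replicate 38) the LowInj mean was 4.79 and the difference from sham 0.17. Over all 39 arrays with group means subtracted, S100a9 correlated with the beta-actin difference at r = 0.54, a relation that was not tested. A list of neutrophil and red blood cell genes had 3 tested genes, 1 of them the red cell gene Alas2, so its sum is not one of neutrophils alone. That summed level on a log2 scale ran from 11.60 to 13.16 in LowInj, 10.81 to 12.26 in IntermediateCort, 10.42 to 12.14 in LowCort and 11.18 to 12.13 in sham rats. Alas2 was 0.31 (SE 0.07, limma adjusted p = 0.037) higher in LowInj than in LowCort, where 0.343% of all tested probe sets were called. The part of blood cells in the S100a9 values was not tested.

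**Figure D4:**
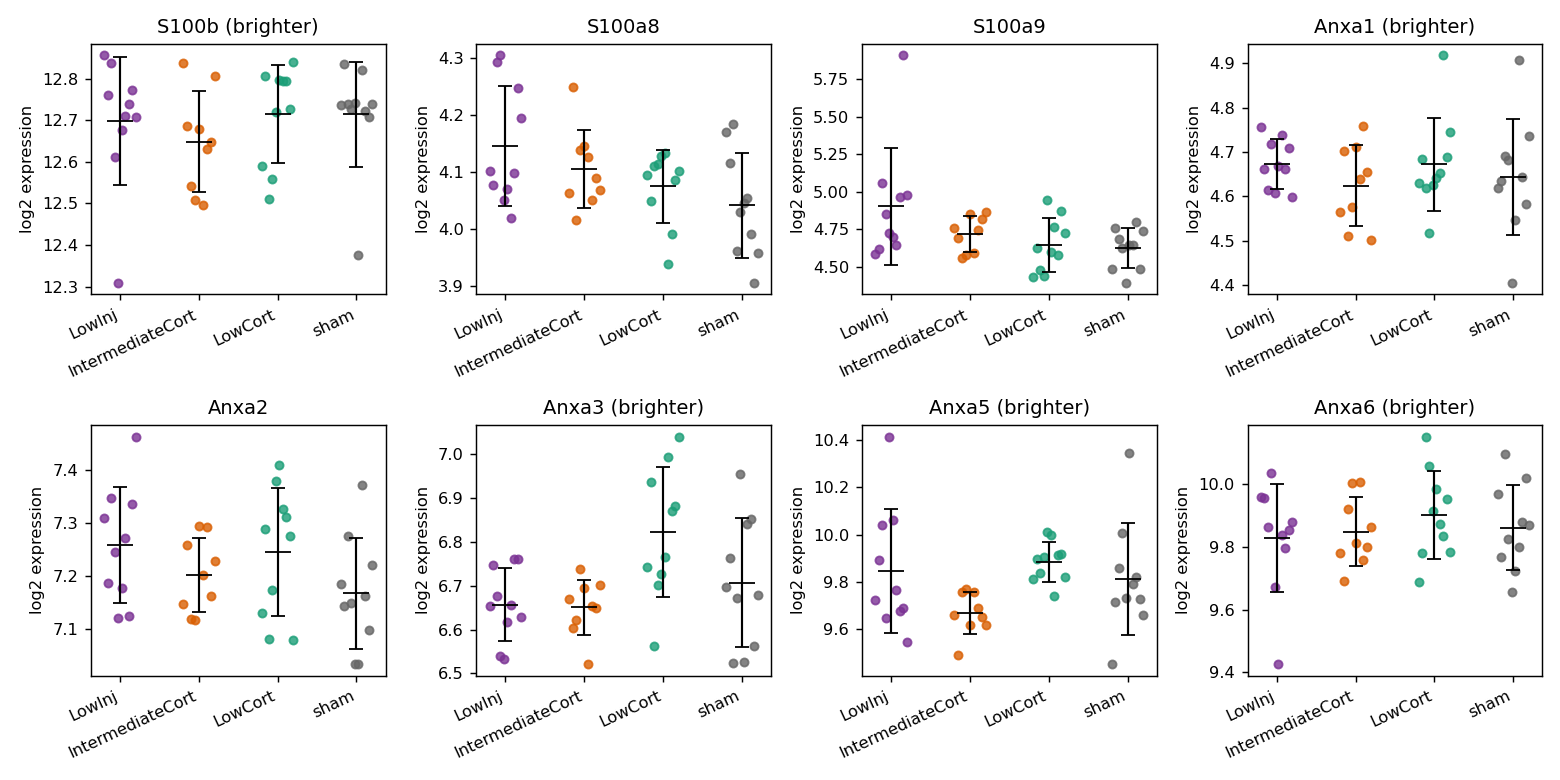
Log2 expression of S100b, S100a8, S100a9 and the annexins in each array (brighter probe set of each gene), with the group mean and SD as bars. Groups overlapped in every panel; the LowCort mean of Anxa3 (6.82) stood above the other 3 group means, and the IntermediateCort mean of Anxa5 (9.67) below them.

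Anxa2, the partner of S100a10, averaged 7.26 ± 0.11 in LowInj, 7.20 ± 0.07 in IntermediateCort, 7.25 ± 0.12 in LowCort and 7.17 ± 0.10 in sham rats (SD). IntermediateCort minus LowCort was -0.04 with a 95% interval of -0.15 to 0.06. Whether Anxa2 and S100a10 differ in that comparison was not tested. Over 39 arrays with group means subtracted, S100a10 and Anxa2 correlated at r = 0.12 (permutation p = 0.479, adjusted p = 0.51) and rho = 0.04 (permutation p = 0.799, adjusted p = 0.799), one of 3 relations computed. S100a4, which also binds annexin A2, correlated with it at r = 0.12 (permutation p = 0.51, adjusted p = 0.51) and rho = 0.18 (permutation p = 0.291, adjusted p = 0.437). S100a8 and S100a9, both of low signal, correlated at r = 0.30 (permutation p = 0.118, adjusted p = 0.354) and rho = 0.26 (permutation p = 0.128, adjusted p = 0.384). Their r was 0.59 within LowInj against -0.03, -0.10 and 0.04 within IntermediateCort, LowCort and sham. The LowInj value includes replicate 38, where S100a9 was 5.91, and r without that array was not computed. Without the 2 arrays farthest from the median of the first gene, r was -0.00 for S100a10 with Anxa2, 0.32 for S100a4 with Anxa2 and 0.31 for S100a8 with S100a9. The arrays left out for S100a8 with S100a9 did not include LowInj replicate 38. None of the 3 relations passed.

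Anxa1 was below the filter on both of its probe sets. The brighter averaged 4.67 ± 0.06 in LowInj, 4.62 ± 0.09 in IntermediateCort, 4.67 ± 0.10 in LowCort and 4.64 ± 0.13 in sham rats (SD). On the dimmer probe set LowCort lay 0.17 (SE 0.05) above sham, with all 10 LowCort arrays above the sham mean, and IntermediateCort lay 0.15 (SE 0.05) below LowCort. On the brighter the same comparisons were 0.03 and -0.05, with intervals of -0.07 to 0.12 and -0.15 to 0.05, and the difference between the probe sets was not tested.

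Anxa3, an annexin found in microglia among other cells, had 1 tested probe set, just above the filter. It averaged 6.66 ± 0.08 in LowInj, 6.65 ± 0.06 in IntermediateCort, 6.82 ± 0.15 in LowCort and 6.71 ± 0.15 in sham rats (SD). None of the 10 LowInj and none of the 9 IntermediateCort arrays was above the LowCort mean, with differences of -0.17 (SE 0.05) and -0.17 (SE 0.06). LowCort minus sham was 0.12 (SE 0.05). None of these was called, though IntermediateCort minus LowCort was called without LowCort replicate 22. The dimmer probe set, below the filter, had group means between 5.46 and 5.54.

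Anxa5, which binds phosphatidylserine on dying cells, had 2 tested probe sets. The brighter averaged 9.85 ± 0.26 in LowInj, 9.67 ± 0.09 in IntermediateCort, 9.89 ± 0.08 in LowCort and 9.81 ± 0.24 in sham rats (SD). IntermediateCort lay 0.22 (SE 0.08) below LowCort with 6 of 9 arrays below the lowest LowCort array. This was not called, but it was called with array weights, at -0.22 (SE 0.06), where 5.52% of all tested probe sets were called. The dimmer probe set had group means of 8.31, 8.30, 8.38 and 8.44 in LowInj, IntermediateCort, LowCort and sham rats. Within groups it was lower where the beta-actin difference was larger (r = -0.67, permutation p = 5e-05, adjusted p = 0.00063; rho = -0.72, permutation p = 1e-05, adjusted p = 0.00027) and where the Gapdh difference was larger (r = -0.67, permutation p = 7e-05, adjusted p = 0.00063; rho = -0.60, permutation p = 0.00018, adjusted p = 0.00162). Without the 2 farthest arrays these were -0.59 and -0.50. It was also lower at higher subject ranks (r = -0.52, permutation p = 0.00112, adjusted p = 0.00605; rho = -0.61, permutation p = 0.00018, adjusted p = 0.00162). The brighter passed with neither difference (r = -0.41, permutation p = 0.0322, adjusted p = 0.104 and rho = -0.23, permutation p = 0.191, adjusted p = 0.344 for beta-actin). Whether the 2 probe sets differ in this was not tested.

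Anxa6, the largest annexin, averaged 9.83 ± 0.17 in LowInj, 9.85 ± 0.11 in IntermediateCort, 9.90 ± 0.14 in LowCort and 9.86 ± 0.14 in sham rats (SD) on its brighter probe set, and group ranges overlapped. The dimmer, below the filter, had group means between 5.94 and 6.01. The threshold thus divided the Anxa6 probe sets, and S100a4 (mean 6.69) and the brighter Anxa3 (6.71) were the tested members nearest to it.

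Beside the members, other genes of these families and genes of their partners were examined, with the called shares of all tested probe sets, 0.0163% to 2.14%, as background; a count of 0 among so few genes is near that background. Of 5 other S100 and annexin genes on the array, 2 were tested, S100a1 and Anxa7. S100a1, which regulates calcium cycling in muscle and is also found in neurons, lies in the same chromosome 2 cluster as S100a4, at chr2:178291503-178296346. All 4 of its probe sets were higher in LowCort than in sham, by 0.16 to 0.34, and lower in IntermediateCort than in LowCort, by 0.13 to 0.32, with a lowest limma adjusted p of 0.0522, so none was called. Anxa7 differed by -0.01 in LowCort minus sham. Of 3 tested plasminogen-system genes (Plat, Plaur and Serpine2), 5 tested genes whose products bind S100a10 (Asic1, Htr1b, Htr1d, Htr4 and Kcnk3), 3 whose products bind S100a4 or S100b (Gap43, Mapt and Mdm2) and the receptor gene Ager, 0 were called in any of the 6 comparisons. The nearest was Plaur, the urokinase receptor, at -0.16 (SE 0.05, limma adjusted p = 0.0771) in LowCort minus sham. Of 3 phospholipase A2 genes, whose enzymes annexins can inhibit, Pla2g4a fell in IntermediateCort, at 6.73 against 7.07 in LowCort, a difference of -0.34 (SE 0.07, limma adjusted p = 0.00412), and Pla2g5 and Pla2g6 were not called. In LowCort minus sham, Pla2g4a differed by 0.16 (SE 0.07, limma adjusted p = 0.292).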

How the data were processed

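The authors deposited log2 expression values for 8799 probe sets on 39 arrays, and per the submitters' processing notes MAS5, RMA and R 2.7.1 were used, in a role not given in the sources used here. Base 2 was read from the range of the values, 2.82 to 14.37. The values were not normalized again. The 59 control probe sets were left out, and 6118 of 8740 others, with a mean at or above the 30th percentile, were fitted with limma 3.58.1 (R 4.3.3), with 1 mean per group, 35 residual degrees of freedom and Benjamini-Hochberg adjustment over all 6118. Called means an adjusted p under 0.05, two-sided. A gene was named only from a probe set with 1 symbol, and probe sets of a gene were kept apart. Correlations used 100000 permutations within groups (Python 3.11.15, SciPy 1.17.1), two-sided, where 1e-05 is the smallest p they can give. The members, lists and tests were chosen with earlier results of these data known. Genes of likeness were named as the 5 with the highest r to S100a4 and S100a10. The fit was tested on simulated data. Each array is 1 animal, and the number of arrays limits the precision. Alternatives were other filters, array weights, RNA quality, subject number and leaving out arrays.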

Additional observations from a re-analysis of the deposited data

Results flagged for a closer look

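In 3 of the 60 sets of values examined (15 probe sets in 4 groups), 1 array lay far from the others of its group, and chance alone flags about 1 in 20 such sets. The brighter S100b probe set had a LowInj array at 12.31, where the next was at 12.61, and a sham array at 12.38, where the next was at 12.71. In the same LowInj animal (replicate 34) and sham animal (replicate 6) the brighter Anxa5 probe set had the highest value of its group, 10.41 and 10.35. The Gapdh 3-prime minus 5-prime differences of these arrays were 1.04 and 0.96. S100a9 had a LowInj array at 5.91 (replicate 38), where the next was at 5.06. S100a8 was 4.25 in that animal, within the range of its group. The Gapdh difference of that array was 1.36 and its beta-actin difference 1.85.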

How the results depend on the processing

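With array weights the count of called member probe sets in LowInj minus IntermediateCort was 1 (S100a10), against 0. Of all tested probe sets 1.72% were then called there, against 0.196%. In IntermediateCort minus LowCort array weights gave a count of 3 (the brighter Anxa5 was added), against 2. The share of all tested probe sets called was 5.52%, against 2.14%. With the subject rank as a covariate the count in LowInj minus sham was 1 (S100a4), against 0. There 0.49% of all tested probe sets were called, against 0.229%. These settings thus called more of all probe sets too. With the filter at the 50th percentile S100a4 was not tested. The counts were then 1 in IntermediateCort minus LowCort, 0 in LowCort minus sham and 1 in the F test. Of the 4370 probe sets above that filter 2.36%, 1.97% and 2.65% were called, in the same order. Leaving out 1 array at a time, the F test called 1 to 2, IntermediateCort minus LowCort 2 to 3 (Anxa3 was added without LowCort replicate 22), LowCort minus sham 1 to 1, and the other 4 comparisons 0 to 0. The share of all tested probe sets called in each of these refits was not computed. Without the 2 LowInj arrays with a Gapdh difference over 1.5, an alternative chosen after seeing the data, all 7 counts were as with all arrays. S100a9 without LowInj replicate 38 was chosen in the same way. The r of S100a10 with Anxa2 was -0.00337 without its 2 farthest arrays (adjusted p = 0.984 by permutation), and that of S100a4 with Anxa2 was -0.0479 with RNA quality removed (adjusted p = 0.805 by permutation); the cause was not tested. A second probe set could not be tried for these relations, since each of the 5 genes has 1. No paired analysis was possible because every subject number belongs to 1 animal in 1 group. Low signal limits S100a8, S100a9 and Anxa1.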
